A study of Mus musculus with 2 samples.

Results

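The Eph receptors described here are the products of 10 genes, Epha3, Epha4, Epha5, Epha6, Epha7, Ephb1, Ephb2, Ephb3, Ephb4 and Ephb6, measured in single cells of the mouse cerebral cortex at embryonic day (E) 16.5. The genes were taken by symbol, and they are 10 of the 32285 genes listed in each library. There were 2 libraries, both from WT embryos that served as controls of an Eomes-Cre line, and they are called replicate 1 and replicate 2. A total of embryos is stated for the single-cell data of this age, but not how many went into each library, so p-values measure only the spread between these 2 libraries, which may be technical. The cortex was dissociated with papain, and poly(A) RNA of each droplet was captured from its 3′ end with a unique molecular identifier (UMI) on each molecule. No mutant or treated group was analysed here, and all comparisons are between cell types of the same libraries.

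Eph receptors are receptor tyrosine kinases whose ligands, the ephrins, are themselves held in the membrane of neighbouring cells, so that signalling needs contact between cells. EphA receptors mainly bind ephrin-A ligands, which are anchored to the membrane by a lipid, and EphB receptors mainly bind ephrin-B ligands, which span it. EphA4 is the best known exception, because it also binds ephrin-B ligands. In the developing cortex the family is known for contact repulsion of growing axons and migrating neurons, and EphB4 is known as the receptor of veins. EphB6 has a kinase domain that lacks catalytic activity.

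All 10 genes matched the RefSeq tables of the GRCm38.p6 assembly, the build named mm10 in the submitters' processing notes. Epha3 lies on chromosome 16 from base 63543532 to 63864175, Epha4 on chromosome 1 from 77367182 to 77515107 and Epha5 on chromosome 5 from 84054761 to 84417818. Ephb1 lies on chromosome 9 from 101922128 to 102354693 and Ephb4 on chromosome 5 from 137350109 to 137374522. The 250 bases upstream of the annotated start are printed for 3 receptors that had their highest levels in different cell types, with each CG dinucleotide in capitals. They run 5′ to 3′ on the strand of the gene. The Epha3 window is chr16:63864176-63864425 on the minus strand, the Ephb1 window is chr9:102354694-102354943 on the minus strand and the Ephb4 window is chr5:137349859-137350108 on the plus strand.
Epha3: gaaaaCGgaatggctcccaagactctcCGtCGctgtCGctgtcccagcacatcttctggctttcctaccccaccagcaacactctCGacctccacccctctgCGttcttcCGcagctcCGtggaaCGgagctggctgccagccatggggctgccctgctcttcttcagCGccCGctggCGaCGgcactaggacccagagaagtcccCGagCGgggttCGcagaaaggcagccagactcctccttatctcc
Ephb1: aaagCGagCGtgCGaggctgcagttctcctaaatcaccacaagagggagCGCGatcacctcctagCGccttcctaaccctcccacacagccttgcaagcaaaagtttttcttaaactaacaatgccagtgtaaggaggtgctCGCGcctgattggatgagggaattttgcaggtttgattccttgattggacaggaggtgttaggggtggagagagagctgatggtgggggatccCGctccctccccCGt
Ephb4: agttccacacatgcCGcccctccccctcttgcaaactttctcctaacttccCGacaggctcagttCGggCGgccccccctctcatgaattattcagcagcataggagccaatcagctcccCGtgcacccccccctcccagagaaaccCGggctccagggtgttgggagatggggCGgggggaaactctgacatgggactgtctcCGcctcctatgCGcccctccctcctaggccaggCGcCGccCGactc
The Epha3 window held 16 CG dinucleotides, the Ephb1 window 10 and the Ephb4 window 12. Over the 11 windows of the 10 receptors the number ran from 10 to 27, with a median of 16.0. At least 10 CG dinucleotides stood in 37.8% of all 32851 windows of this length, whose median was 6.0, and at least 1 in 92.13%. This letter pair reads the same on both strands, and its number is a description of these windows alone.

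Cells were kept with 1500 to 60000 UMIs and under 10% mitochondrial UMIs, which left 5966 cells of replicate 1 with a median of 5706 UMIs and 10247 cells of replicate 2 with a median of 4938 UMIs. The libraries shared 21 barcodes. Cells were gated by marker genes that hold no Eph receptor, and 9142 of the 16213 cells entered a gate. Types with at least 20 cells in each library were compared, which gave 14 types and 9046 cells. They comprise radial glial cell (RGC)-like and intermediate progenitor cell (IPC)-like cells, newborn excitatory, upper-layer and deep-layer neuron-like cells, GABAergic progenitor-like cells, interneuron-like cells of the medial and caudal ganglionic eminence (MGE and CGE), striatal projection neuron-like cells, and endothelial-like, mural cell-like, meningeal fibroblast-like, microglia-like and erythroid-like cells. The smallest was the microglia-like gate with 24 and 69 cells and the largest the upper-layer neuron-like gate with 886 and 1650. Every gate had at least 1 of its own markers among its 10 leading genes. The gates were set on these markers, so this is no independent check of the type names. Upper-layer and deep-layer neuron-like cells had only 1 each. IPC-like cells had 2 of their own and 2 of another list. Ttr, a gene that choroid plexus makes in large amounts, led the RGC-like cells, followed by RGC markers such as Tnc, Fabp7 and Hes5.

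The receptors divided the cortical cells in different ways. Levels are given as CPM, the UMIs of a gene scaled to a fixed total of UMIs over the cells of a type in a library, and are compared for a gene between types, not between genes. Of the 140 pairs of a receptor and a type, 84 had at least 10 CPM in both libraries. Among the neural types with a mean of at least 50 CPM, the higher library was a median of 1.147 times the lower over 51 pairs, and the ratio was under 1.5 in 45 of them. The widest gap was Epha6 in CGE interneuron-like cells, at 32.8 and 127 CPM.

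**Figure D1:**
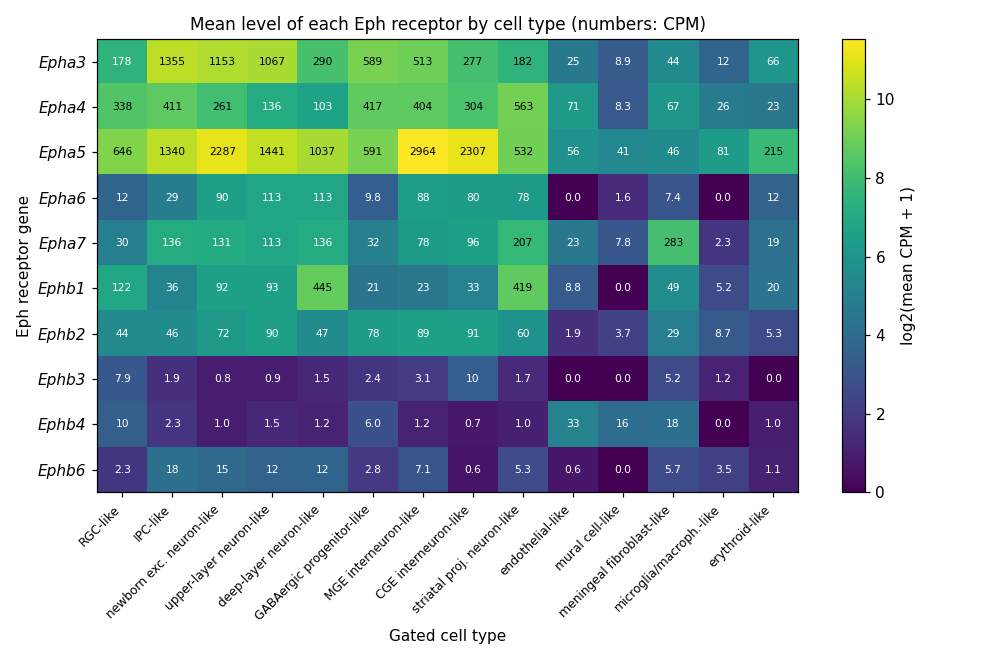
Mean level of the 10 Eph receptors (rows) in the 14 gated types (columns). Colour is log2(mean CPM + 1) over the 2 libraries and the printed numbers are the mean CPM. Epha3 is brightest from IPC-like to upper-layer neuron-like cells, Ephb1 in deep-layer and striatal projection neuron-like cells, and Ephb4 in endothelial-like cells.

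Epha3, an EphA receptor of axon and neuron guidance, was highest in IPC-like cells at 1476 and 1234 CPM in replicates 1 and 2. It stayed near that level in newborn excitatory neuron-like cells (1177 and 1129 CPM) and upper-layer neuron-like cells (1131 and 1003 CPM), and the libraries of the last 2 types overlapped. In RGC-like cells it stood at 189 and 168 CPM, and in deep-layer neuron-like cells at 292 and 287 CPM. The 5 types from RGC-like to deep-layer neuron-like cells thus fell into a high set of 3 and a low set of 2 whose libraries did not overlap. Among GABAergic cells it ran from 154 and 210.4 CPM in striatal projection neuron-like cells to 679 and 498 CPM in GABAergic progenitor-like cells.

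Epha4, the receptor with ligands of both ephrin classes, had a different order. Striatal projection neuron-like cells were highest at 601 and 524 CPM, above both libraries of every other type. The next 5 types in the order, GABAergic progenitor-like, IPC-like, MGE interneuron-like, RGC-like and CGE interneuron-like, had means from 417 down to 304 CPM, and each overlapped the next. Among them RGC-like cells held 365 and 309.9 CPM and IPC-like cells 468 and 354 CPM. Upper-layer neuron-like cells held 148 and 124 CPM and deep-layer neuron-like cells 118 and 88.5 CPM, the lowest of the neural types.

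Epha5 was highest in MGE interneuron-like cells at 3006 and 2923 CPM. CGE interneuron-like cells (2444 and 2170 CPM) and newborn excitatory neuron-like cells (2342 and 2232 CPM) came next and overlapped. The lowest neural levels were those of striatal projection neuron-like cells at 505 and 559 CPM, GABAergic progenitor-like cells at 662 and 520 CPM and RGC-like cells at 687 and 606 CPM. From the lowest to the highest neural type the mean differed 5.57-fold.

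Epha6 was found mainly in neuron-like cells, with 82.0 and 143 CPM in deep-layer, 101.4 and 124 CPM in upper-layer and 113 and 67.6 CPM in newborn excitatory neuron-like cells. RGC-like cells held 15.8 and 8.20 CPM and GABAergic progenitor-like cells 5.79 and 13.9 CPM. Epha7, known for topographic mapping of cortical and thalamic axons, was highest outside the neural types, at 254 and 312 CPM in meningeal fibroblast-like cells. Of the neural types, striatal projection neuron-like cells led at 213 and 202 CPM, and RGC-like cells were lowest at 35.7 and 24.0 CPM.

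Ephb1, a receptor of the ephrin-B ligands with roles in axon guidance at the midline, had its highest levels in other types than Epha3. Deep-layer neuron-like cells held 491 and 399 CPM and striatal projection neuron-like cells 427 and 411 CPM, and these overlapped. RGC-like cells followed at 145 and 97.8 CPM, while IPC-like cells held 33.6 and 39.0 CPM. MGE interneuron-like cells were among the lowest neural types at 33.9 and 12.9 CPM. This was 0.148 and 0.056 UMIs per cell, a range that took in the 0.064 and 0.087 UMIs per cell of erythroid-like cells, which served as the background.

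Ephb2, a receptor known from synapses and axon guidance, varied least, 2.04-fold over the neural types, from 39.4 and 49.5 CPM in RGC-like cells to 92.6 and 89.0 CPM in CGE interneuron-like cells. Ephb3, Ephb4 and Ephb6 were sparse. Ephb3 had 57 and 80 UMIs over all 14 types, and its level in RGC-like cells was 8.12 and 7.60 CPM. Ephb4 was highest in endothelial-like cells at 33.8 and 32.5 CPM, followed by meningeal fibroblast-like cells at 10.7 and 24.7 CPM and mural cell-like cells at 16.9 and 15.6 CPM. The endothelial-like counts behind it were 13 and 26 UMIs. Ephb6 was highest in IPC-like cells at 18.1 and 18.3 CPM and held 10.9 and 18.4 CPM in newborn excitatory neuron-like cells.

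**Figure D2:**
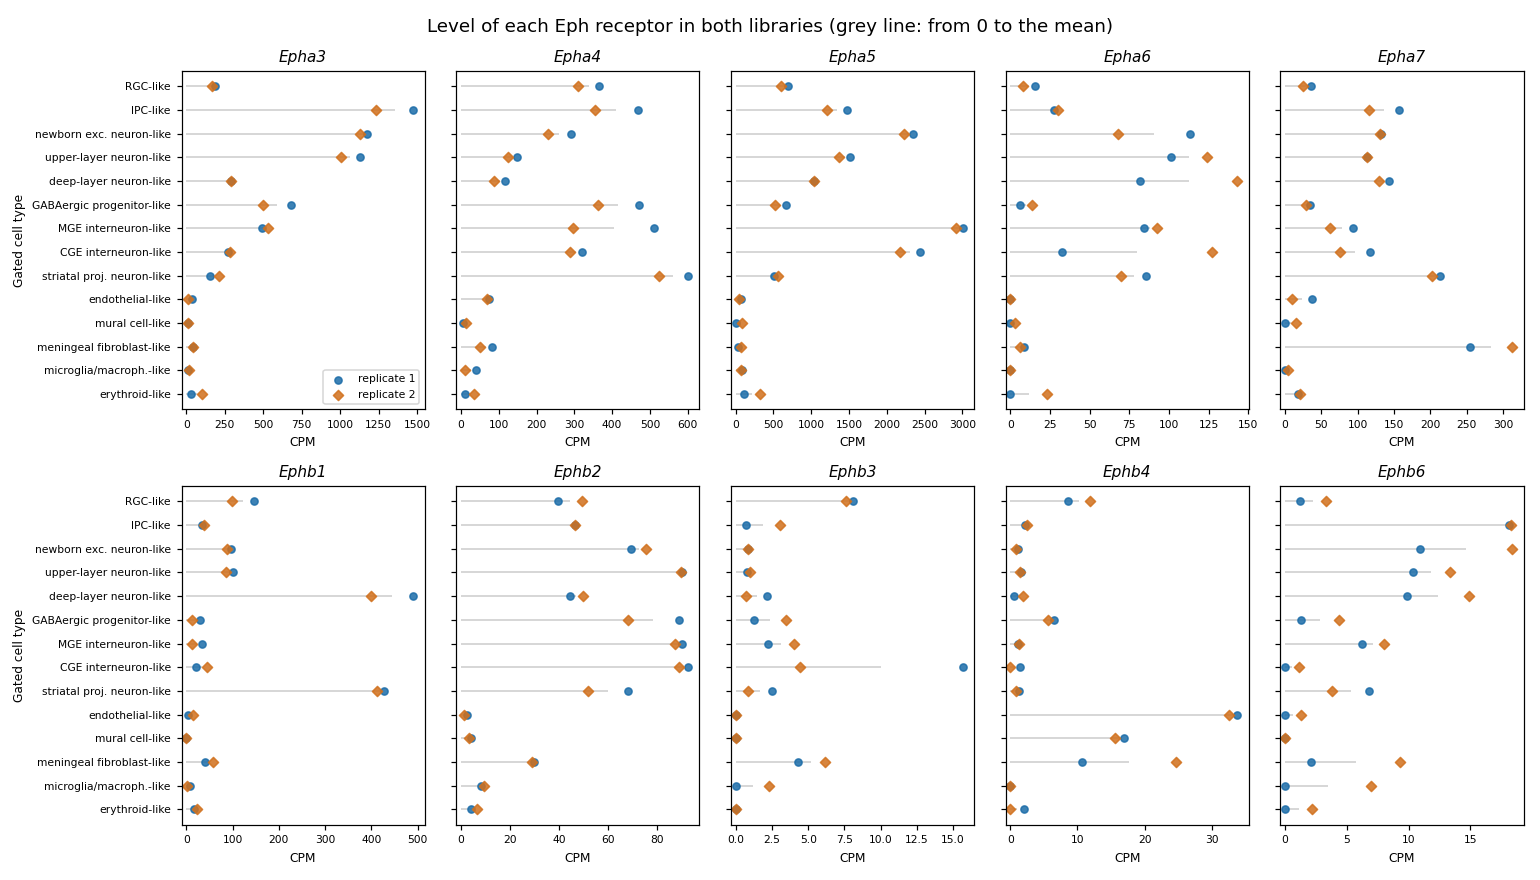
CPM (x axis, from 0) of each Eph receptor in the 14 gated types (y axis), with a circle for replicate 1, a diamond for replicate 2 and a grey line from 0 to their mean. Each panel has its own scale, and the levels of different genes are not comparable. Epha3 and Ephb1 show separated high and low types, whereas Ephb2 lies between 39.4 and 92.6 CPM in all 9 neural types.

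RNA free in the droplets adds UMIs to cells that do not make a transcript. Erythroid-like cells, chosen for at least 20% globin UMIs, held 0.383 and 1.28 Epha5 UMIs per cell against 5.64 and 3.72 in RGC-like cells, and microglia-like cells held 0.458 and 0.464. For Epha4 the erythroid-like value was 0.043 and 0.135 UMIs per cell, against 3.0 and 1.90 in RGC-like cells. Once mitochondrial and globin UMIs were left out of the denominator, erythroid-like cells reached 394 and 1173 CPM of Epha5, so that their CPM cannot be read beside that of neural cells. The summed level of the 8 broad excitatory markers was 1840 to 2192 CPM in newborn, upper-layer and deep-layer neuron-like cells and 23.5 to 203 CPM in the 10 types that should lack them, with the highest value in erythroid-like cells. In RGC-like cells it was 60.1 and 89.9 CPM. IPC-like cells, whose gate set no limit on these markers, held 1658 and 1541 CPM. The Epha5 levels of microglia-like cells (88.1 and 74.6 CPM), mural cell-like cells (4.22 and 78.0 CPM) and endothelial-like cells (65.1 and 46.3 CPM) are of the size that free RNA can give and are not read as expression.

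Thinning each cell to 1500 UMIs gave the share of cells with a receptor at equal depth. Epha3 was found in 74.2% ± 6.68 (SD, n = 2) of IPC-like cells and in 15.8% ± 1.73 (SD, n = 2) of RGC-like cells, beside 3.38% ± 0.77 (SD, n = 2) of erythroid-like cells. Without thinning the same shares were 92.2%, 29.4% and 7.5%. Epha4 was found in 38.1% of thinned RGC-like cells and 43.1% of IPC-like cells. In endothelial-like cells its share was 21.1% in replicate 1 and 9.28% in replicate 2, and in erythroid-like cells, taken as the background, it was 1.42% and 5.68%. Ephb1 was found in 40.5% of deep-layer neuron-like cells and, in MGE interneuron-like cells, in 2.71% in replicate 1 and 0.973% in replicate 2. Its share in erythroid-like cells was 0 of 141 cells in replicate 1, which allows up to 2.13%, and 1.31% in replicate 2, so the share in MGE interneuron-like cells was not above background in replicate 2. The median depth before thinning was 7295 and 5151 UMIs in RGC-like and 2825 and 3215 UMIs in erythroid-like cells. These shares count cells with a UMI and are limited by a count of 0 in many expressing cells.

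Most neural cells carried more than 1 receptor. In thinned cells, 76.9% ± 5.46 (SD, n = 2) of IPC-like cells and 78.5% ± 2.66 (SD, n = 2) of newborn excitatory neuron-like cells held UMIs of at least 2 of the 10 genes. RGC-like cells held at least 2 in 46.0% and 39.6% of cells, below both libraries of IPC-like cells at 80.7% and 73.0%. The mean number of receptors with a UMI was 2.23 per IPC-like cell and 1.40 per RGC-like cell. Mural cell-like cells had at least 1 receptor in 10.7% and 12.2% of cells, close to the 11.4% and 15.3% of erythroid-like cells.

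**Figure D3:**
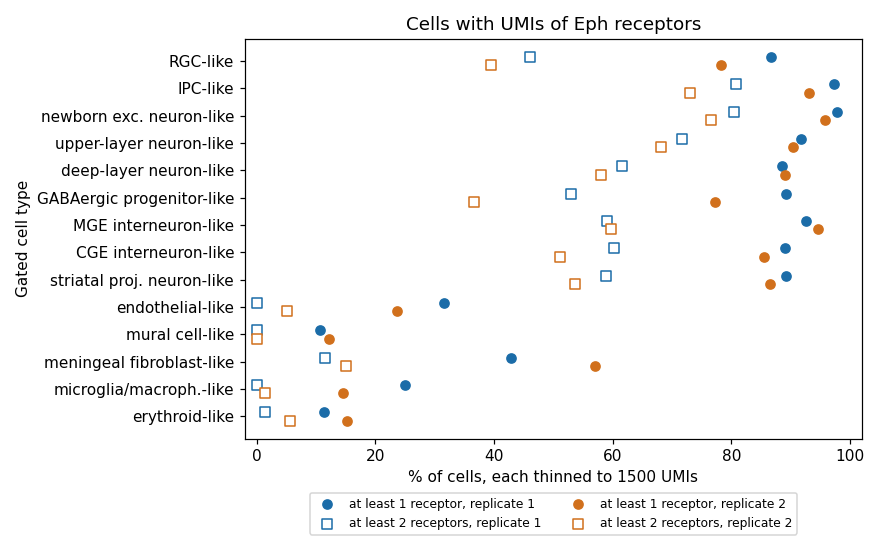
Share of cells (x axis, %) with UMIs of at least 1 receptor (filled circles) and at least 2 receptors (open squares) in each gated type (y axis), with blue for replicate 1 and orange for replicate 2, after each cell was thinned to 1500 UMIs. At least 1 receptor was found in 77.3% to 97.9% of cells of every neural type and in 10.7% to 57.0% of cells of the other types.

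The first comparison set RGC-like cells against IPC-like cells. RGCs are the stem cells of the ventricular zone and IPCs their dividing neurogenic daughters. The IPC-like gate asked for Eomes but for no gene of cell division. Epha3, Epha4, Epha5, Epha6, Epha7 and Ephb6 were lower in RGC-like cells, and Ephb1, Ephb3 and Ephb4 were higher. The test was the quasi-likelihood test of edgeR, adjusted by Benjamini-Hochberg over 14987 genes, and 9 of the 10 receptors differed at an adjusted p under 0.05, 3 higher and 6 lower in RGC-like cells. Of all genes tested, 42.6% differed, 22.4% higher and 20.2% lower, so that a called gene was common in this comparison. The median absolute fitted log2 fold change was 1.75 over the receptors and 0.56 over all genes. The median over the receptors takes in Epha6, Ephb3, Ephb4 and Ephb6, for which no fold is given. Epha3 was 8.08-fold lower in RGC-like cells (log2 fold change -3.01 ± 0.16 SE, edgeR adjusted p = 7.3e-18) and Epha7 was 4.90-fold lower (log2 -2.29 ± 0.19). Ephb6 was also lower, on 3 and 11 UMIs in RGC-like and 49 and 60 UMIs in IPC-like cells. No fold is given for Ephb6 and Epha6, since their RGC-like levels were not separate from the background in erythroid-like cells. Epha6 stood at 0.13 and 0.05 UMIs per RGC-like cell against 0 and 0.092 per erythroid-like cell, and Ephb6 at 0.01 and 0.021 against 0 and 0.009. Epha5 was 2.20-fold lower and Epha4 1.28-fold lower, with log2 fold changes of -1.14 ± 0.18 and -0.36 ± 0.13. The Epha4 call was lost under DESeq2 (adjusted p = 0.161) and without the library block (edgeR adjusted p = 0.13), and the Epha6 call was lost under DESeq2 (adjusted p = 0.131) and without Scrublet doublets (edgeR adjusted p = 0.463).

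Ephb1 was 3.07-fold higher in RGC-like than in IPC-like cells (log2 1.62 ± 0.20, edgeR adjusted p = 2.76e-08). Ephb4 was also higher, on 21 and 39 UMIs in RGC-like against 6 and 8 UMIs in IPC-like cells, and so was Ephb3, on 20 and 25 UMIs against 2 and 10. The counts in IPC-like cells were too few to set them apart from background, and no fold is given for either. The summed endothelial markers were 183 and 192 CPM in RGC-like and 64.6 and 93.6 CPM in IPC-like cells, beside 10745 and 11361 CPM in endothelial-like cells, and their part in the Ephb4 difference was not tested. Ephb2 did not pass the test, at 39.4 and 49.5 CPM in RGC-like and 46.5 and 46.3 CPM in IPC-like cells.

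From IPC-like to newborn excitatory neuron-like cells 5 of the 10 receptors differed, beside 18.2% of all genes, 8.38% higher and 9.78% lower in IPC-like cells. Of these, Epha4 alone was higher in IPC-like cells, by 1.5-fold (log2 0.59 ± 0.13, edgeR adjusted p = 0.000631). The 4 receptors that were higher in the newborn neurons were Epha6 by 3.33-fold, Ephb1 by 2.61-fold, Epha5 by 1.78-fold and Ephb2 by 1.63-fold. The Epha5 difference did not pass in DESeq2 (adjusted p = 0.175). Epha3 did not differ at the threshold (log2 0.17 ± 0.14), nor did Epha7 (log2 -0.02 ± 0.15).

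Between newborn and upper-layer neuron-like cells 3 receptors differed, beside 14.8% of all genes, 6.85% higher and 7.92% lower in newborn neurons. Epha4 was 1.84-fold higher in the newborn neurons, at 292 and 229.6 CPM against 148 and 124 CPM. Epha5 was 1.54-fold higher (log2 0.62 ± 0.18, edgeR adjusted p = 0.0124) and Ephb2 was 1.28-fold lower (log2 -0.36 ± 0.11, edgeR adjusted p = 0.023). DESeq2 kept the call of Epha4 and lost those of Epha5 (adjusted p = 0.399) and Ephb2 (adjusted p = 0.113), and Epha5 was also lost without the library block (edgeR adjusted p = 0.0776). These consecutive comparisons share the cells of the type between them and are not independent of each other.

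Upper-layer and deep-layer neuron-like cells, which project within the cortex and to targets below it, differed in 5 receptors, beside 12.6% of all genes, 5.63% higher and 6.95% lower in upper-layer neuron-like cells. Epha3 was 3.80-fold higher in upper-layer neuron-like cells (log2 1.93 ± 0.16, edgeR adjusted p = 2.21e-12). Ephb2 was 1.96-fold higher, at 90.0 and 89.7 CPM against 44.3 and 49.8 CPM. Ephb1 had the opposite direction, 4.62-fold lower in upper-layer neuron-like cells (log2 -2.21 ± 0.15, edgeR adjusted p = 5.84e-14). Epha4 and Epha5 were higher by 1.38-fold and 1.44-fold in upper-layer neuron-like cells, and both calls were lost without the library block, which left 3 of the 5 receptors, and under DESeq2, which also left 3. Epha6 did not differ at the threshold, with a log2 fold change of 0.03 ± 0.23.

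**Figure D4:**
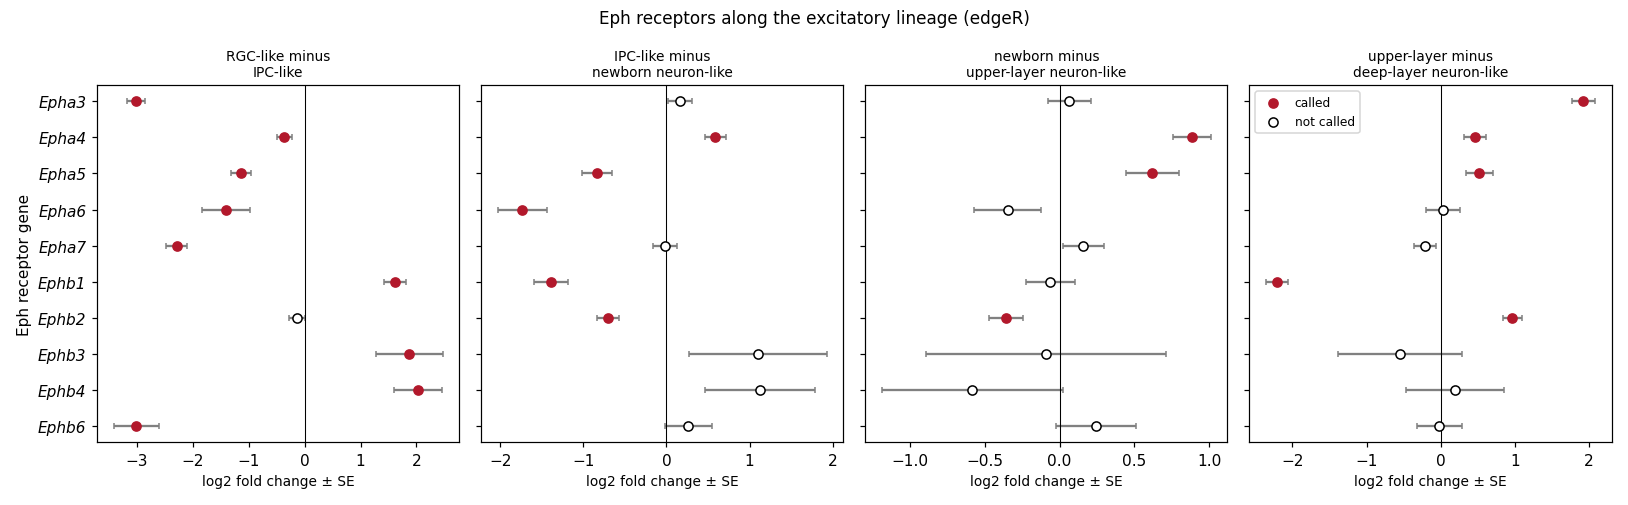
Log2 fold change ± SE (x axis) of each Eph receptor (y axis) in 4 comparisons along the excitatory lineage, first type minus second, from edgeR on 2 libraries. Red points passed an adjusted p under 0.05 and open points did not. Epha3 lies at -3.01 from RGC-like to IPC-like cells and at 1.93 between upper-layer and deep-layer neuron-like cells, where Ephb1 lies at -2.21.

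MGE interneuron-like cells, which include the somatostatin cells and carry Lhx6 and Sst among their leading genes, were set against the mean of upper-layer and deep-layer neuron-like cells. There 5 of the 10 receptors differed, beside 25.8% of all genes, 13% higher and 12.9% lower in the interneuron-like cells. Epha4 was 3.22-fold higher in the interneuron-like cells (log2 1.69 ± 0.12, edgeR adjusted p = 5.71e-15), at 512 and 297 CPM. Epha5 was 2.33-fold higher. Ephb2 was 1.31-fold higher than that mean, at 90.3 and 87.4 CPM in MGE interneuron-like cells, 90 and 89.7 CPM in upper-layer and 44.3 and 49.8 CPM in deep-layer neuron-like cells. Ephb1 was lower, from a level in the excitatory types above background to one that was not separate from it, so no fold is given. Epha7 was 1.69-fold lower (log2 -0.75 ± 0.15). Epha3 did not pass the test (log2 -0.17 ± 0.14), and its mean over the excitatory types combined a high and a low type.

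Between MGE and CGE interneuron-like cells 2 receptors were called, beside 5.71% of all genes, with 3.39% higher and 2.32% lower in the MGE type. Epha3 was 1.91-fold higher in MGE interneuron-like cells, at 493 and 533 CPM against 272 and 283 CPM (log2 0.93 ± 0.18, edgeR adjusted p = 0.000377). Under DESeq2 its adjusted p was 0.0607. Ephb6 was higher at 6.21 and 7.99 CPM against 0 and 1.11 CPM (edgeR adjusted p = 0.0342), on 11 and 18 UMIs against 0 and 1. Its call was lost without the library block (edgeR adjusted p = 0.0684), without Scrublet doublets (edgeR adjusted p = 0.0779), under the stricter gate (edgeR adjusted p = 0.362) and under DESeq2 (adjusted p = 0.17). Epha5 (log2 0.41 ± 0.18) and Epha4 (log2 0.42 ± 0.15) did not pass.

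The striatal projection neuron-like cells, whose place is the striatum below the cortex, differed from MGE interneuron-like cells in 6 receptors, beside 10.8% of all genes, 5.05% higher and 5.76% lower. Ephb1 was higher (edgeR adjusted p = 1.07e-17), at 427 and 411 CPM against 33.9 and 12.9 CPM. No fold is given, since the level in MGE interneuron-like cells was not separate from background. Epha7 was 2.72-fold higher and Epha4 1.43-fold higher, and the Epha4 call was lost without the library block (edgeR adjusted p = 0.132). Epha5 was 5.54-fold lower (log2 -2.47 ± 0.19), Epha3 2.77-fold lower and Ephb2 1.5-fold lower.

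**Figure D5:**
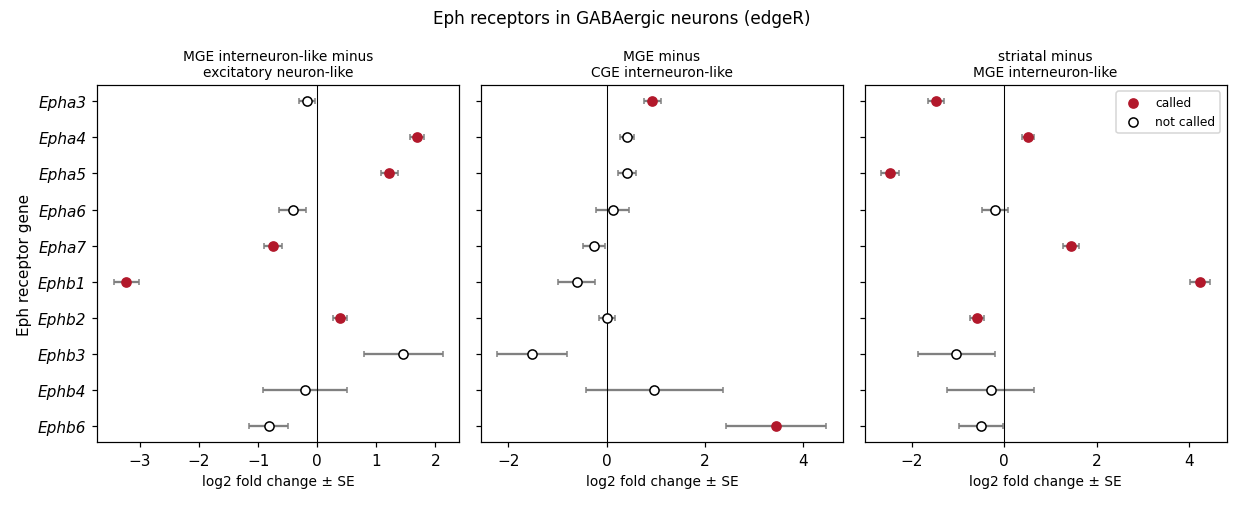
Log2 fold change ± SE (x axis) of each Eph receptor (y axis) in 3 comparisons of GABAergic neurons, first type minus second, from edgeR on 2 libraries. Red points passed an adjusted p under 0.05 and open points did not. Epha4 lies at 1.69 in MGE interneuron-like against excitatory neuron-like cells, and the 3 Ephb1 points rest on a level in MGE interneuron-like cells that was not separate from background.

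Between endothelial-like and RGC-like cells 7 receptors differed, 1 higher and 6 lower in endothelial-like cells, beside 37% of all genes, 17.5% higher and 19.4% lower. The median log2 fold change of all genes was -0.16. Ephb4, the venous receptor, was 3.62-fold higher (log2 1.86 ± 0.38, edgeR adjusted p = 0.000122). Ephb2 was lower at 2.60 and 1.25 CPM, which is 1 UMI in each library. Epha5, Epha3 and Ephb1 were also lower. No fold is given for these, since their endothelial-like levels were of the size of the background in erythroid-like cells. Epha3 stood at 0.395 and 0.082 UMIs per endothelial-like cell against 0.121 and 0.393 per erythroid-like cell, and Ephb1 at 0.026 and 0.124 against 0.064 and 0.087. Ephb3 had 0 UMIs in the endothelial-like cells of both libraries, which allows up to 2.54 CPM for 3 counts over both, so that it was at least 3.1-fold lower than in RGC-like cells. Epha6 was also at 0 in both, at least 4.74-fold lower, and did not pass the test (edgeR adjusted p = 0.0626). It passed under DESeq2 (adjusted p = 0.0063) and without the filter on low counts (edgeR adjusted p = 7.7e-05). Epha4 was 4.01-fold lower, at 72.9 and 70.1 CPM.

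Against mural cell-like cells, the contractile cells around the same vessels, 1 receptor differed, beside 14.4% of all genes, 7.57% higher and 6.85% lower in endothelial-like cells. Epha4 was higher in endothelial-like cells (edgeR adjusted p = 0.000205), on 28 and 56 UMIs against 1 and 4. No fold is given, since the 0.036 and 0.082 UMIs per mural cell-like cell were not above the 0.043 and 0.135 per erythroid-like cell. The broad excitatory markers stood at 57.3 and 42.6 CPM in endothelial-like and 46.4 and 78.0 CPM in mural cell-like cells, and the broad GABAergic markers at 36.4 and 38.8 CPM and at 42.2 and 15.6 CPM. The part of free RNA in the Epha4 difference was not tested. Ephb4 (log2 1.10 ± 0.55) did not pass, and Ephb3 was at 0 UMIs in all 4 sums.

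Of 44 other genes of the pathway, comprising the remaining Eph receptors, the ephrins and the regulators, adaptors, kinases and proteases around them, 39 could be tested. Their levels were not set against the background in erythroid-like cells. Between RGC-like and IPC-like cells 24 differed, 7 higher and 17 lower, beside the 42.6% of all genes. Efna5, an ephrin-A ligand, was 1.81-fold higher in RGC-like cells. Chn2, a Rac-specific GTPase-activating protein of the chimaerin family, was 6.66-fold lower. Between IPC-like and newborn excitatory neuron-like cells 15 of the 39 differed, 4 higher and 11 lower, beside 18.2% of all genes, with 8.38% higher and 9.78% lower. Efnb2, an ephrin-B ligand that EphA4 and EphB4 bind, was 1.84-fold lower in IPC-like cells at 137 and 132 CPM. In newborn against upper-layer neuron-like cells 9 differed, 3 higher and 6 lower, beside 14.8% of all genes. Efna5 was 3.55-fold higher in the newborn neurons.

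Between upper-layer and deep-layer neuron-like cells 12 of the 39 genes differed, 6 in each direction, beside 12.6% of all genes. Efna5 was 7.98-fold lower in upper-layer neuron-like cells (log2 -3.00 ± 0.18, edgeR adjusted p = 2.74e-16), with a mean of 18.0 against 155 CPM. Efnb2 was 1.74-fold higher. In MGE interneuron-like against excitatory neuron-like cells 23 differed, 12 higher and 11 lower, beside 25.8% of all genes. Efna5 was 6.10-fold higher than an excitatory mean that combined this low and this high type. Efna3 was lower, with a mean of 3.14 against 15.8 CPM. On the log2(CPM + 1) scale, Efna3 differed by -1.57 in replicate 1 and by -2.64 in the other library. Between MGE and CGE interneuron-like cells 5 differed, beside 5.71% of all genes, and Efna5 was 2.80-fold higher in the former. Striatal projection neuron-like cells differed from MGE interneuron-like cells in 11, beside 10.8% of all genes, among them Grip1, a scaffold that binds Eph receptors and ephrin-B ligands, which was 3.56-fold lower. Endothelial-like cells differed from RGC-like cells in 24, with 14 higher and 10 lower, beside 37% of all genes. Arhgef15, an exchange factor of vessels, was higher there with a mean of 44.0 against 0.558 CPM. Efnb1 was lower there with a mean of 8.34 against 115 CPM. Against mural cell-like cells 16 differed, 10 higher and 6 lower, beside 14.4% of all genes. Efna1 had 0 UMIs in mural cell-like cells and was at least 13.1-fold higher in endothelial-like cells.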

How the data were processed

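Single-cell 3′ RNA-seq of E16.5 WT cortex was measured in 2 libraries. The authors deposited raw UMI counts per gene and barcode, made with Cell Ranger, version 7.0.0 per the submitters' processing notes and 7.1.0 per the file headers, against mm10. The annotation and the treatment of intronic reads are not given in the sources used here. The libraries held 9049 and 13556 barcodes with 46398156 and 64324236 UMIs.

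Cells were filtered as stated above and gated by numbers of distinct markers (3 to 5 of a list), with 155 cells in more than 1 gate left out and 7071 not gated. No cells were removed as doublets in the main analysis, and Scrublet was an alternative. UMIs were summed per library and type (28 sums). edgeR 4.0.16 in R 4.3.3 (TMM, at least 10 UMIs in at least 2 sums, library as block, quasi-likelihood test, 13 residual degrees of freedom before moderation) gave fold changes, with SE taken from the F statistic. A call is an adjusted p under 0.05. The library block pairs the types because all types of a library come from the same droplets. Gating and thinning used scanpy 1.11.5. On simulated counts for RGC-like against IPC-like cells, 59 of 100 genes changed 2-fold and 100 of 100 changed 4-fold were recovered, with 6 of 14818 unchanged genes called among 15018. Floors cover counting error only, whereas the SE also holds the spread between libraries that the fit estimates.

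Named genes were all 10 receptors and, of the other pathway genes, called genes with at least 10 CPM in the higher type, the same direction in both libraries and the largest fold change, up to 3 per direction. The members, gene lists and comparisons were chosen with earlier results of these data known. Alternatives were DESeq2 1.42.0, no filter on low counts, no library block, Scrublet, a stricter gate, at least 3000 UMIs per cell, the compared types alone, and each library left out.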

Additional observations from a re-analysis of the deposited data

How the results depend on the processing

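Numbers of receptors called moved by over 1.5 times in 4 of the 9 comparisons. Newborn against upper-layer neuron-like cells had 3, with 1 under DESeq2 and 5 with the compared types alone. Upper-layer against deep-layer neuron-like cells had 5, with 3 under DESeq2 and 3 without the replicate block that pairs the types. MGE against CGE interneuron-like cells had 2, with 0 under DESeq2 (4 at an unadjusted p under 0.05), 4 without the filter, and 1 each without the replicate block, without Scrublet doublets and under the stricter gate. Endothelial-like against mural cell-like cells had 1, and 2 without the filter. The cause was not tested. Leaving out either replicate kept the direction of every called receptor in all 9 comparisons, with no test. Pairs at 10 CPM or more numbered 84, with 86 without mitochondrial and globin UMIs and 86 to 93 with 1 library, and pairs with a share of at least 5% of thinned cells numbered 60, with 82 unthinned and 64 with either library alone.

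With both libraries in the fit, signs turned under these alternatives only for fold changes that had not passed the test. Under DESeq2 these were Epha6 between upper and deep layers (-0.04) and Ephb2 between MGE and CGE (-0.046). With the compared types alone they were Epha7 between IPC-like and newborn neurons (0.007), Epha6 between the layers (-0.031) and Ephb2 between MGE and CGE (-0.071). Without the filter it was Ephb6 between the layers (0.029). Without Scrublet doublets they were Ephb3 between newborn and upper-layer neurons (0.34), Ephb2 between MGE and CGE (-0.056) and Ephb2 between endothelial-like and mural cell-like cells (0.10). Under the stricter gate they were Ephb3 between newborn and upper-layer neurons (0.00), Ephb6 between the layers (0.007), Ephb1 (0.08) and Ephb2 (-0.18) between MGE and CGE, and Ephb4 between striatal and MGE cells (0.76). Single libraries also differed in sign for some fold changes that had not passed, such as Ephb2 between RGC-like and IPC-like cells (-0.24 in replicate 1 and 0.09 in replicate 2, as differences of log2(CPM + 1)). The 2 libraries, the sparse UMIs of Ephb3, Ephb4 and Ephb6 and the 24 to 97 cells of the smaller vascular and immune gates limit what could be detected.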

Other observations

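Cajal-Retzius-like cells, the early Reln-expressing neurons of the marginal zone, were too few for the fit with 19 and 39 cells, and no test was made. They held 730.2 and 704 CPM of Epha3, on 85 and 259 UMIs, and 34.4 and 35.3 CPM of Epha4, on 4 and 13 UMIs. Epha5 stood at 395 and 294 CPM. Ephb6 was at 42.95 and 46.2 CPM, on 5 and 17 UMIs, above both libraries of the 14 types in the fit. The 8 and 15 oligodendrocyte precursor-like cells held 129.9 and 305 CPM of Epha4 on 7 and 18 UMIs.

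The other 4 Eph receptors of the mouse were near the limit of detection. Epha2 held 15.6 and 15 CPM in endothelial-like cells on 6 and 12 UMIs and at most 1.29 CPM in any library of the neural types. Epha8 held 14.9 and 7.22 CPM in meningeal fibroblast-like cells. Epha1 and Epha10 stayed under 10 CPM in every library of every type.

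Among the ephrins, Efnb1 was highest in RGC-like cells at 116 and 113 CPM and fell to 32.5 and 29.5 CPM in upper-layer neuron-like cells. Efna5 was highest in MGE interneuron-like cells at 407 and 283 CPM, with 14.4 and 21.6 CPM in upper-layer neuron-like cells. Efna1 was at 80.7 and 60.1 CPM in endothelial-like cells and at most 4.12 CPM in any library of another type.

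Over the mean levels of the 9 neural types, log2(CPM + 1) of Epha6 and Epha7 gave the highest Pearson r among pairs of receptors, 0.794, and Epha6 and Ephb4 the lowest, -0.922. The points share libraries and depth, and the values are descriptions. Over all 14 types, the genes outside the family and the marker lists whose pattern was most like that of a receptor, among 13233 candidates, were A330093E20Rik (r = 0.98) and Trim2 (r = 0.97) for Epha3, Pou2f1 (r = 0.949) and Stox2 (r = 0.933) for Epha4, and Gm17750 (r = 0.973) and Astn1 (r = 0.97) for Epha5. For Ephb1 they were Tm7sf2 (r = 0.917) and Sybu (r = 0.906), and for Ephb4 Jag1 (r = 0.96) and Heph (r = 0.956).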
